A study of Mus musculus with 4 samples.

Results

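The genes that encode CTCF, its paralog CTCFL and 8 proteins reported to bind or act beside CTCF were examined as loci that CTCF itself may occupy. The 10 genes, out of 21523 protein-coding genes of the autosomes and X, were Ctcf, Ctcfl, Yy1, Zfp143, Maz, Patz1, Adnp, Chd8, Chd4 and Vezf1. They were taken by name. For each, every CTCF peak with its summit inside the gene or within 50 kb of either annotated end was collected (mm10 coordinates). This gave 84 peaks out of 51871, with no peak shared between the windows. The data are chromatin immunoprecipitation and sequencing of CTCF in whole testes of F1 mice of a B6 by CAST cross, with 2 immunoprecipitated samples and 2 input samples; neither the age of the mice nor a treatment is given in the labels. The tissue was not sorted, so sites used in meiotic, postmeiotic or somatic cells cannot be told apart. All values come from 1 merged peak list, which holds no value per sample: no replicate error can be given, the read depth is unknown, and every count is a description without a test.

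CTCF is a zinc-finger protein that halts the extrusion of chromatin loops by cohesin and thereby sets loop anchors and domain boundaries. In male germ cells it is joined by CTCFL, also called BORIS, a paralog with a closely related zinc-finger domain whose expression is largely restricted to the testis. YY1, ZFP143 (the mouse counterpart of ZNF143), MAZ, PATZ1 and VEZF1 are zinc-finger proteins that bind promoters or boundary elements and have been reported near CTCF, while CHD8 is a chromatin remodeller reported as a CTCF partner. CHD4 and ADNP belong to the ChAHP complex, which competes with CTCF for some sites in mouse embryonic stem cells.

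RefSeq promoter sequences (GRCm38.p6, 300 bases each, from 250 bases before to 50 bases after an annotated start) were available for 9 of the 10 genes, with 13 sequences in all, and Ctcfl was not among them. The first set shows where CTCF summits fell inside a promoter. Capitals mark the 21 bases centred on the summit for Zfp143 (chr7:110061452-110061751, plus strand) and Chd8 (chr14:52257711-52258010, minus strand). For the second of the Patz1 promoters (chr11:3290207-3290506, plus strand), capitals mark the closest match to the CTCF core, the letters CCA, 2 bases of any kind, AG, 2 bases of any kind and GGC.
Zfp143: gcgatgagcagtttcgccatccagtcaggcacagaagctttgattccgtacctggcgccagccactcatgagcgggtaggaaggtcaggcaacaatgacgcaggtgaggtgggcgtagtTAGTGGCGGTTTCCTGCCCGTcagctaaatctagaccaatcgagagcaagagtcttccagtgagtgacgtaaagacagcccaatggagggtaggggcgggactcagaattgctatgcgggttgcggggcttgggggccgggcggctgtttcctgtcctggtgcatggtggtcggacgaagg
Chd8: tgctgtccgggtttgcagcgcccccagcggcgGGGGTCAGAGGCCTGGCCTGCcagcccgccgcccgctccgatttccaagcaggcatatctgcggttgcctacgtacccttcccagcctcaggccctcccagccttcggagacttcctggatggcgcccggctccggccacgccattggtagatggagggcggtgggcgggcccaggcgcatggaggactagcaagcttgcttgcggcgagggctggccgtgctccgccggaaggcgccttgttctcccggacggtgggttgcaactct
Patz1: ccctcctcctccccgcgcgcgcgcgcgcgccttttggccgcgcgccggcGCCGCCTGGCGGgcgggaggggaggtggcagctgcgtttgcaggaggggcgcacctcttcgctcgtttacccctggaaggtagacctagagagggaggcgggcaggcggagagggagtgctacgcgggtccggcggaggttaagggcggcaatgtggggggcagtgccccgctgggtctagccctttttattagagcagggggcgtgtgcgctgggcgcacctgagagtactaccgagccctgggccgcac

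The summit lay at base 130 of the Zfp143 sequence, at base 43 of the Chd8 sequence and at base 64 of the Patz1 sequence. In Patz1 the marked stretch, bases 50 to 61 on the reverse strand, matched 7 of the 8 fixed letters and ended 3 bases from the summit. Zfp143 and Chd8 reached 6 of 8 at best, as did Adnp and Vezf1. A best match of 7 of 8 was also found in the first Patz1 sequence and in those of Ctcf, Yy1, Maz and Chd4. No peak touched that Patz1 sequence, either Chd4 sequence or the Maz sequence at chr7:127026430-127026729, so such a match was not particular to occupied promoters. Among all 32619 promoter sequences, 30.7% held a stretch with at least 7 of the 8 letters and 2.44% held all 8, counting both strands. None of the 13 sequences of these genes held all 8. A peak overlapped 8 of the 13 sequences, from 7 of the 9 genes, and 22.7% of all promoter sequences. A summit lay in 4 of the 13 and in 13.1% of all, the Zfp143 summit being counted in both overlapping sequences of that gene. The 13 sequences had a median GC content of 69.3% and 26 CpG pairs, against 53% and 7 for all promoter sequences. Promoter sequences with a peak had medians of 63% and 24, and those with no peak a median of 5 CpG pairs. The part of base composition in the peak counts was not tested. The exact letters found only part of the occupied promoters: 7.50% of the 4278 promoters that held a summit contained the full core, against 1.56% of promoters with no peak.

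The second set shows promoters covered by a peak whose summit lay outside the sequence, and 1 promoter with no peak. In Ctcf (chr8:105636288-105636587, plus strand), Adnp (chr2:168207063-168207362, minus strand) and Maz (chr7:127026956-127027255, minus strand), capitals mark matches to the YY1 motif ATGGCGG and the MAZ motif GGGGAGGG, read on either strand. In Chd4 (chr6:125095913-125096212, plus strand), capitals mark the closest match to the CTCF core.
Ctcf: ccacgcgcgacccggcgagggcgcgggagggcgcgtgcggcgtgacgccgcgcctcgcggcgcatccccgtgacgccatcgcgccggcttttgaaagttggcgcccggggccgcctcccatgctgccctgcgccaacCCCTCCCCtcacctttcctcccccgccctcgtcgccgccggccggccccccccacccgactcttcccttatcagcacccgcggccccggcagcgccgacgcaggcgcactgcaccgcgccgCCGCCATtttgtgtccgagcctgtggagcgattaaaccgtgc
Adnp: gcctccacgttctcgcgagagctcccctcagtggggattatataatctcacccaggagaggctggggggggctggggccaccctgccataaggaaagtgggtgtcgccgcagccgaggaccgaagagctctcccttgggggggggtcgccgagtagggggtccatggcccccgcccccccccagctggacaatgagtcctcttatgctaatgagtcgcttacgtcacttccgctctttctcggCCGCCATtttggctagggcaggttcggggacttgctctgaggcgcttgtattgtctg
Maz: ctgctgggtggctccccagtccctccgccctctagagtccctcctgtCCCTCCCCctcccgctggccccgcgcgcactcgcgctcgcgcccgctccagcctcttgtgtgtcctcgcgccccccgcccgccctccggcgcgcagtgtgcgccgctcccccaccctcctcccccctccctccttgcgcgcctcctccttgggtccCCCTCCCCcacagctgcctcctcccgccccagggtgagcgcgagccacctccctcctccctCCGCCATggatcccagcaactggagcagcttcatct
Chd4: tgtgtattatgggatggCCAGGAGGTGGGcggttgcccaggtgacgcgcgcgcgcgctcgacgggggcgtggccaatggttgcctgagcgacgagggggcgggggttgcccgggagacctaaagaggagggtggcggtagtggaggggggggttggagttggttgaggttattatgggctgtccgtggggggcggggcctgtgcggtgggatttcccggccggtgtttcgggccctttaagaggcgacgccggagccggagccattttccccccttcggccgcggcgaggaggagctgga

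The YY1 motif stood at bases 259 to 265 in Ctcf, 244 to 250 in Adnp and 265 to 271 in Maz, close to the annotated start, base 251, in each. It was found in the promoters of these 3 members and in 4.08% of all promoter sequences. The MAZ motif was found once in Ctcf, at bases 138 to 145, and at 2 places in Maz, at bases 48 to 55 and 204 to 211, beside 10.8% of all promoter sequences. No marked YY1 and MAZ matches overlapped. The ZNF143 motif, searched as ACTACA, 2 bases of any kind and TCC and present in 1.99% of all promoter sequences, was in none of the 13. Chd4 matched the CTCF core at 7 of 8 letters, bases 18 to 29, with no CTCF peak over the sequence. These matches describe letters in a window and say nothing of which factor binds there. The part of the high GC content of the 13 sequences in the motif counts was not tested.

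CTCF summits were more closely spaced around most of these genes than around the typical gene. The median member had 8 summits in the gene or within 50 kb, against 5 over all protein-coding genes, for which the middle 50% ran from 2 to 8. By count, Patz1 with 6 and Vezf1 with 5 lay below the median of 7 for protein-coding genes of chromosome 11. The other members lay above the median of their own chromosome. Per 100 kb of window, which allows for gene length, the median was 6.30 for the members and 3.66 for all protein-coding genes, and all 10 members lay above 3.66. All 10 had a summit in the window, as did 89.8% of all protein-coding genes. Each of the 10 had at least 5, as did 55.9% of all protein-coding genes. A summit of fold at least 10 was present for 8 of the 10, with Yy1 and Adnp as the exceptions, and for 57.8% of all protein-coding genes. The members had a median of 3.50 other protein-coding genes touching their windows, against 3 for all. The number varied, with 7 for Ctcf, Maz and Chd4, 5 for Chd8, 4 for Patz1, 3 for Yy1, and 2 for Ctcfl, Zfp143, Adnp and Vezf1. The part of gene crowding in the summit counts was not tested.

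**Figure D1:**
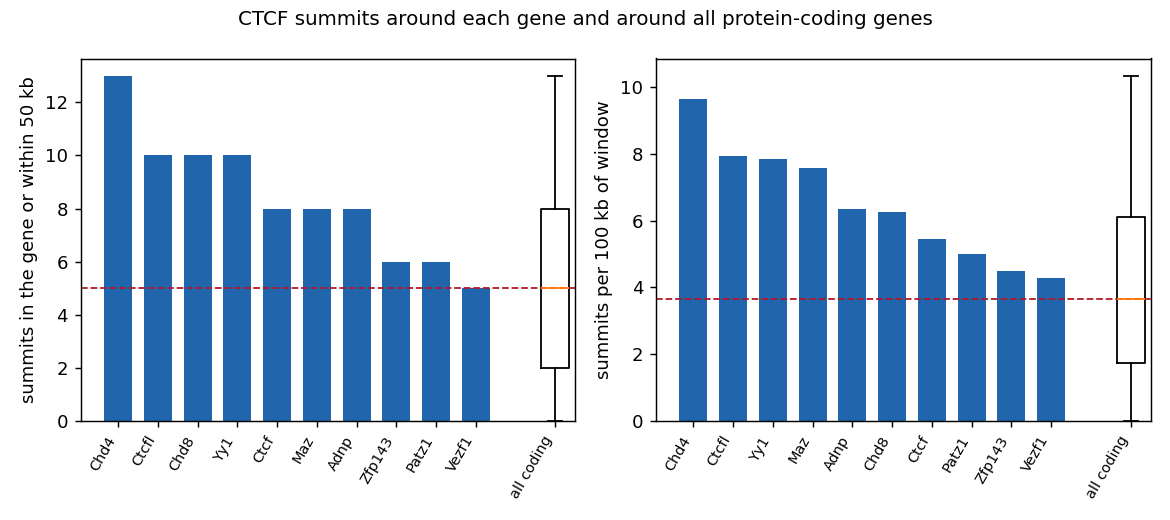
Number of CTCF summits in each gene or within 50 kb (left) and per 100 kb of that window (right); bars are the 10 genes and the box is all protein-coding genes (line, median; box, middle 50%; whiskers, 5th to 95th percentile). The dashed line is the all-gene median, 5 summits and 3.66 per 100 kb; Vezf1 stands on the line at the left with 5 summits, and the other 9 genes stand above it.

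Chd4 had the most summits, 13, which placed it at the 95.1st percentile of all protein-coding genes. Ctcfl, Yy1 and Chd8 followed with 10 each, then Ctcf, Maz and Adnp with 8 each, Zfp143 and Patz1 with 6 each, and Vezf1 with 5, at the 48.8th percentile. Spacing ran from 1.13 kb between a pair of neighbouring summits beside Chd8 to a stretch of 60.6 kb without a summit that spans nearly the whole Chd8 gene. The strength of the peaks was ordinary: their fold enrichment, the authors' ratio of signal to background at the summit, had a median of 7.10 against 6.82 for the whole list, and 18 of the 84 (21.4%) reached a fold of 10 against 19.6% of all peaks.

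Most of the peaks lay outside the member genes. The windows were mostly flank by construction, with 50 kb on either side of genes of at most 59.9 kb. Of the 84 summits, 14 fell inside a member, 46 inside another annotated gene and 24 in no annotated gene. The same division was not made for all peaks. At least 1 summit lay inside 9 of the 10 members, all but Vezf1, and inside 53.1% of all protein-coding genes. The median number inside was 1 for the members and 1 for all protein-coding genes. The members were longer, with a median of 26.7 kb against 17.4 kb, and the part of gene length was not tested. Peaks at the ends of the member genes varied widely in −log10 q. The 8 summits within 1 kb of a member's end had a median −log10 q of 56.3 and a median width of 911 bp, while the other 76 peaks had 33.6 and 659 bp. Of the 8 end peaks 5 exceeded the list median −log10 q of 29.5, as did 40 of the other 76. The end peaks below it were those of Maz at 26.1, Ctcfl at 20.5 and the downstream end of Chd8 at 3.65. Over the whole list the median −log10 q was 19.9 for the 8398 summits at ends of protein-coding genes and 31.7 elsewhere. The splits are not alike, so these medians cannot be set directly against those of the members. The other 76 peaks include summits at ends of other protein-coding genes, such as Pck1. The whole-list split counts such summits as end summits.

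**Figure D2:**
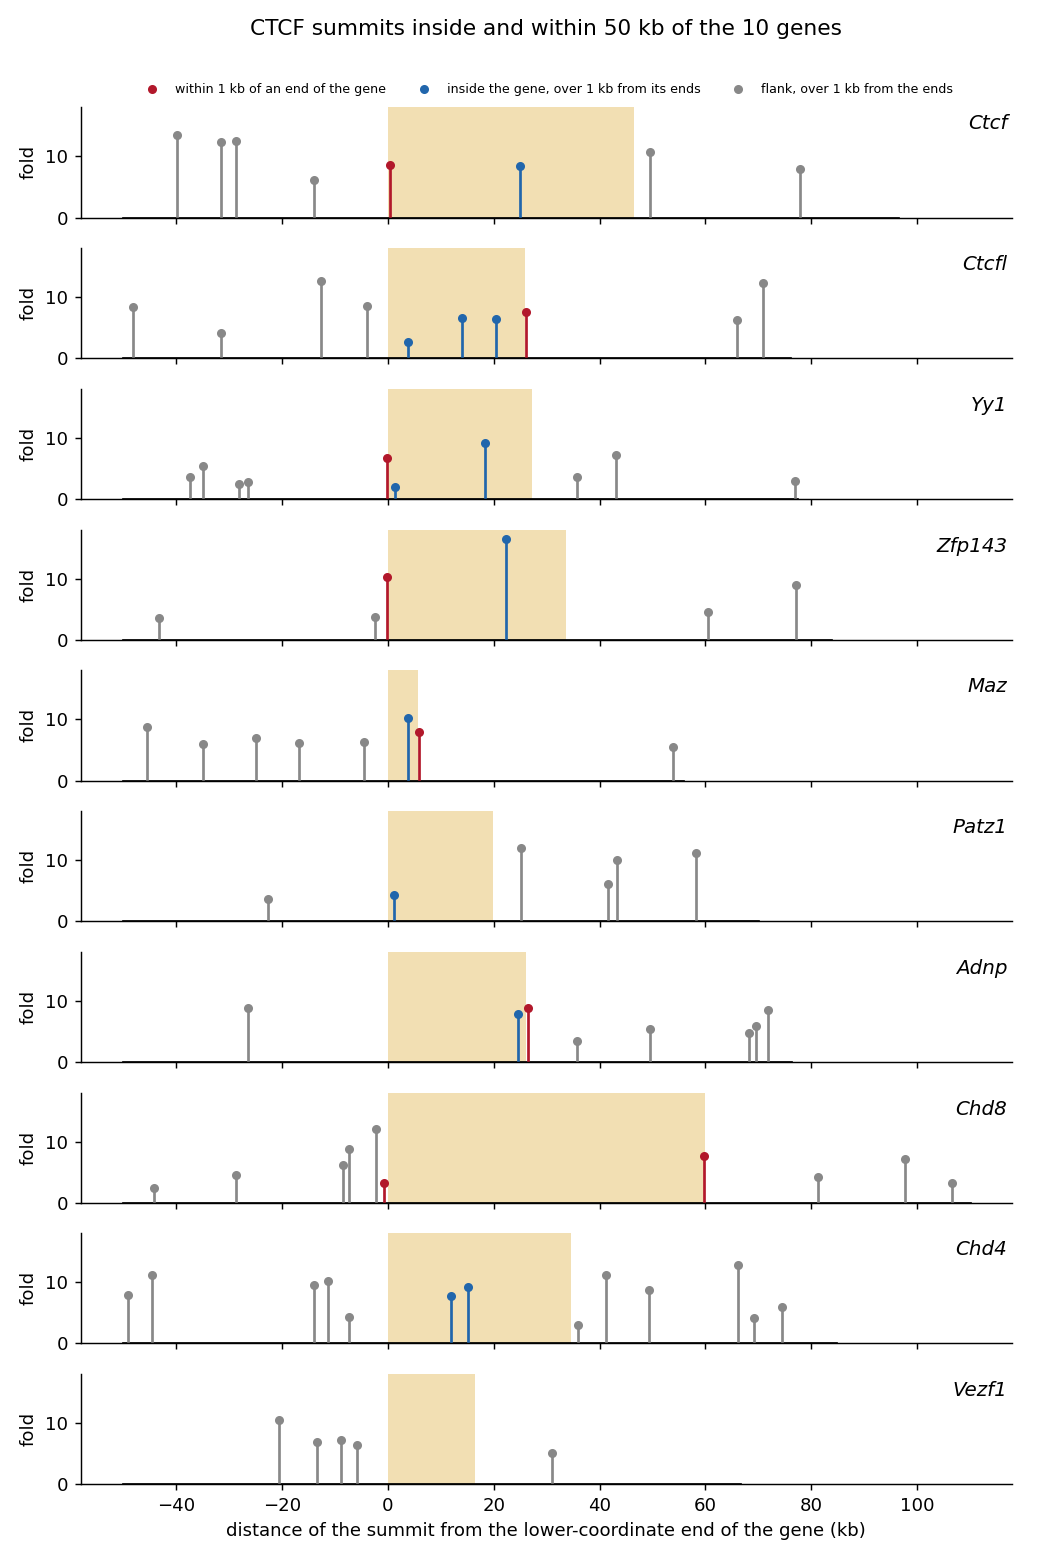
Fold enrichment (vertical axis, same scale in each panel) of every CTCF summit by its distance in kb from the lower-coordinate end of each of the 10 genes; the shaded block is the gene and the black line the gene with 50 kb on either side. The tallest line is inside Zfp143, at a fold of 16.4, and the shaded block of Vezf1 holds no summit.

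Most of the summits at gene ends sat at the upstream end. A summit lay within 1 kb of an annotated end of 7 of the 10 genes, beside 39.1% of all protein-coding genes. Strand was available for 9 members, and 6 of them had such a summit at the upstream end, where transcription starts, beside 34.2% of all stranded protein-coding genes. Only Chd8 also had one at the downstream end, beside 8.79% of all stranded protein-coding genes. It was the 1 member with a summit at both ends, beside 4.12% of all protein-coding genes. Taking the strongest end summit of each gene, all 7 exceeded 5.87, the median of that value over the 8409 protein-coding genes with an end summit, with folds from 6.65 at Yy1 to 10.2 at Zfp143. The weaker end summit of Chd8, at its downstream end, had a fold of 3.29. For Ctcf, Maz and Chd8 an end summit also lay within 1 kb of an end of another gene (Gm5914, a noncoding gene, for Ctcf, Kif22 for Maz and Supt16 for Chd8), so the peak cannot be given to 1 of the genes. In Chd8 this concerned only the weaker, downstream summit.

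**Figure D3:**
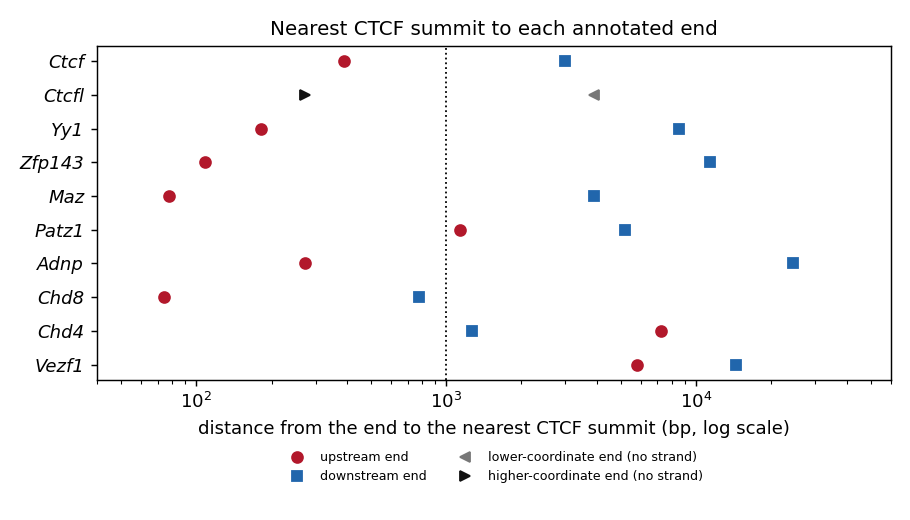
Distance in bp (log scale) from each annotated end of the 10 genes to the nearest CTCF summit; circles are upstream ends, squares downstream ends and triangles the ends of Ctcfl, for which no strand was used, and the dotted line marks 1 kb. In 6 genes the circle is left of the line, from 74 bp for Chd8 to 388 bp for Ctcf, and only for Chd8 is the square there too.

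Ctcf (gene 13018, chromosome 8, 105636474 to 105682922, plus strand) had the strongest set of peaks by median fold, 9.61 over 8 peaks, all above a fold of 6. The promoter peak spanned 105636098 to 105637566, at a fold of 8.52 and a −log10 q value of 61.2. At 1469 bp it was wider than 95.9% of all peaks, it covered the whole promoter sequence shown above, and its summit lay 324 bp after the start site. A second peak inside Ctcf, at summit 105661387, had a similar fold of 8.35 but a −log10 q value of only 24.4 and a width of 532 bp.

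Upstream of Ctcf, 3 peaks stood inside Ripor1, the neighbouring gene, with folds of 13.4, 12.3 and 12.4 at 39.9, 31.4 and 28.7 kb from the gene. The strongest of them spanned 105596159 to 105597198. These were the highest folds of the Ctcf window. The weakest, with a fold of 6.08, lay at 13.9 kb, at an end of Ripor1. Downstream, a peak with a fold of 10.7 stood 2.99 kb beyond Ctcf, within 1 kb of an end of Carmil2, and the last, with a fold of 8.005, lay in Gfod2 at 31.4 kb.

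Ctcfl (gene 664799, chromosome 2, 173093609 to 173119525) had wide peaks inside it. Inside it lay 3 peaks, more than in any other member, with widths of 1625, 1278 and 1304 bp. Each was wider than at least 92.5% of all peaks, and their folds were modest at 2.69, 6.56 and 6.34. Their −log10 q values of 21.5, 50.4 and 58.4 were high for such folds. The first, spanning 173096644 to 173098268, paired the lowest fold of the Ctcfl window with its greatest width.

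The peak at the higher-coordinate end of Ctcfl, spanning 173119315 to 173119987, had its summit 271 bp beyond the gene, a fold of 7.48 and a −log10 q value of 20.5. All these peaks, and another with a fold of 8.48 at 3.93 kb on the lower side, also fall within Gm40011, an annotated protein-coding gene that contains Ctcfl. The strongest peak, at a fold of 12.7 and a −log10 q value of 73.7, spanned 173080720 to 173081522 at 12.5 kb on the lower side, in no annotated gene. On the higher side a summit of fold 6.33 lay within 1 kb of an end of Pck1, the gluconeogenic enzyme gene, and one of fold 12.3 at 45.0 kb. The 2 remaining peaks, on the lower side, had folds of 4.14 and 8.41. Of the 10 peaks 5 were at least 1000 bp wide, against 16.6% of the whole list.

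Yy1 (gene 22632, chromosome 12, 108792945 to 108820148, plus strand), which encodes a zinc-finger protein that helps to bring enhancers and promoters together, was surrounded by many weak peaks. Its 10 peaks had the lowest median fold of the members, 3.67, and 4 of them reached a fold of 5. The strongest was inside the gene, 18.1 kb after the start site, at a fold of 9.18 and a −log10 q value of 30.1. Another peak inside Yy1, at summit 108794385, had a fold of 1.96 and a −log10 q value of 1.76, near the authors' threshold, whose lowest kept value was 1.308. The peak at the upstream end, 108792139 to 108793141, had a fold of 6.65, a −log10 q value of 54.5 and its summit 182 bp outside the gene. It covered 95 of the 300 bases of the promoter sequence.

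Far upstream of Yy1, at 34.9 kb, a peak of 1892 bp in the noncoding gene Gm33628 was wider than 98.7% of all peaks, with a fold of 5.31. The 3 other peaks on that side had folds of 2.503 to 3.67. Downstream the folds were 3.67, 7.19 and 2.96, in or near Slc25a29 and in Wars. Equal values recur among weak peaks and stronger ones. A fold of 3.67 with a −log10 q value of 4.29 was recorded at 2 places in the Yy1 window and at 1 beside Patz1. A fold of 8.74 with a −log10 q value of 59.1 was recorded at 2 places in the Adnp window.

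Zfp143 (gene 20841, chromosome 7, 110061689 to 110095396, plus strand) held the strongest peak of all 84. It spanned 110083437 to 110084450 inside the gene, 22.3 kb after the start, at a fold of 16.4 and a −log10 q value of 83.1, and 98.8% of all peaks had a lower fold. The promoter peak, 110061100 to 110062256, was the strongest end peak of the 10 genes, at a fold of 10.2 and a −log10 q value of 58.1, and its summit lay 108 bp outside the gene, at the capitals of the first sequence shown. A narrow peak of 290 bp stood 2.34 kb upstream, with a fold of 3.75. The other 3 peaks had folds of 3.63, in Ipo7, and 4.61 and 8.95, both in Wee1, which encodes a cell-cycle kinase. With 3 of 6 peaks under a fold of 5, Zfp143 joined the strongest single site of the set to few other strong ones.

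Maz (gene 17188, chromosome 7, 127021450 to 127027188, minus strand), which encodes a zinc-finger protein reported beside CTCF at boundaries, is the shortest member at 5.74 kb. Its 8 peaks ranged in fold from 5.45 to 10.3 and in −log10 q from 13.3 to 74.8. The strongest lay inside the gene at 127025133 to 127025556, with a −log10 q value of 41.2. The upstream end peak, 127027101 to 127027651, had a fold of 7.85 and a −log10 q value of 26.1, with its summit 78 bp outside the gene and in the gap to Kif22, a kinesin gene. It covered 155 bases of the promoter sequence. On the downstream side 5 peaks followed each other, at 4.40, 16.7, 24.8, 35.0 and 45.4 kb, with folds of 6.30, 6.21, 7.01, 6.01 and 8.81. The last of them, at Cdipt, had the highest −log10 q of the window, 74.8. Upstream only 1 further peak was found, at 48.1 kb, with a fold of 5.45.

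Patz1 (gene 56218, chromosome 11, 3289131 to 3309083, plus strand), which encodes a BTB zinc-finger protein related to MAZ, lacked a summit within 1 kb of either end. Its single internal peak, 3289886 to 3290788, had its summit 1.14 kb into the gene and 187 bp before the second annotated start. The fold was 4.26 with a −log10 q value of 39.2. It thus covered the whole second promoter sequence and none of the first. The strong peaks were downstream: folds of 11.9 at 5.17 kb in noncoding genes, 10.1 at 23.3 kb in Pik3ip1 and 11.2 at 38.2 kb in Limk2. Another downstream peak, of fold 6.14, stood at 21.6 kb. The only peak upstream, in Drg1, had a fold of 3.67.

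Vezf1 (gene 22344, chromosome 11, 88068199 to 88084729, plus strand), whose product binds the insulator of the beta-globin locus in chicken, was the only member without a summit inside it. Its nearest summit lay 5.79 kb upstream, with a fold of 6.46. That was the closest of 4 upstream peaks, whose folds were 10.6, 6.95, 7.29 and 6.46 and whose distances were 20.6, 13.4, 8.92 and 5.79 kb. The strongest lay inside Srsf1, a splicing factor gene. The single downstream peak, of fold 5.09 at 14.5 kb, lay in Cuedc1. No peak touched the promoter sequence of Vezf1.

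Adnp (gene 11538, chromosome 2, 168180965 to 168207112, minus strand) had a pair of peaks at its upstream end and long empty stretches on the other side. The end peak, 168206552 to 168207716, had a fold of 8.74 and a −log10 q value of 59.1, and its summit lay 273 bp upstream of the start. Inside the gene, 1.64 kb after the start, a peak of fold 7.87 and −log10 q value 62.0 spanned 168205046 to 168205953. Both summits also fell within Gm20716, another annotated gene that overlaps Adnp. The end peak covered the whole promoter sequence shown above. No further summit was found for 50.9 kb, until a peak of fold 8.74 and −log10 q 59.1, the same values as at the end peak, at 26.4 kb beyond the downstream end. Upstream, 5 peaks had folds from 3.47 to 8.42, with 3 of them between 42.0 and 45.7 kb. No peak of the Adnp window reached a fold of 10, and its highest was at the 22.6th percentile of the highest folds of all protein-coding genes with a summit.

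Chd4 (gene 107932, chromosome 6, 125095980 to 125130591, plus strand), which encodes the remodelling ATPase of the NuRD and ChAHP complexes, combined the densest window with bare ends. Neither of its 2 promoter sequences touched a peak, and the nearest summit on the upstream side was 7.25 kb away, with a fold of 4.27. Inside Chd4 were 2 peaks, 11.9 and 15.1 kb after the start, with folds of 7.71 and 9.21 and −log10 q values of 22.4 and 29.5. Beyond the downstream end, the nearest summit was at 1.27 kb, at an end of Nop2, with a fold of 3.07.

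The strong peaks of the Chd4 window stood in its neighbours. The highest fold, 12.9, belonged to the peak from 125161738 to 125162521, at 31.6 kb, whose summit lay in Gapdh, the gene of a glycolytic enzyme, and within 1 kb of an end of Iffo1. Peaks in Acrbp, Nop2 and Lpar5 had folds of 11.2, 11.2 and 10.1, and a second in Lpar5 had 9.49. Acrbp encodes a protein of the sperm acrosome. The remaining 4 peaks had folds of 7.91, 8.75, 4.14 and 5.94. The window touched 7 other protein-coding genes, as did those of Ctcf and Maz, the most among the members.

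Chd8 (gene 67772, chromosome 14, 52198151 to 52258042, minus strand), the longest member at 59.9 kb, had peaks at both ends and none between. The upstream end peak, 52257473 to 52258290, had a fold of 7.63 and a −log10 q value of 62.5, and its summit lay 74 bp inside the gene, within the promoter sequence shown above. The downstream end had a weak peak, at a fold of 3.29 and a −log10 q value of 3.65, with its summit 780 bp outside the gene. Beyond it, 3 peaks inside Supt16, a gene for a histone chaperone subunit, were stronger the closer they lay to Chd8, with folds of 6.09 at 8.41 kb, 8.80 at 7.28 kb and 12.1 at 2.29 kb. The last spanned 52195543 to 52196207 and was the strongest of the window. Further along were folds of 4.47 in Supt16 and 2.36 in Rpgrip1, where the −log10 q of 1.38 was the lowest among the 84 peaks. On the upstream side the folds were 4.21 and 7.19 at Tox4 and Mettl3 and 3.16 in Mettl3.

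The pairing of fold and −log10 q varied widely among these peaks. At folds between 8.35 and 8.52, a range picked after the values were seen, the −log10 q was 24.4 inside Ctcf and 25.4 at the lower edge of the Ctcfl window, but 61.2 at the Ctcf promoter, 65.2 beside Ctcfl and 60.3 upstream of Adnp. The low values belonged to peaks of 532 and 376 bp, and the high ones to peaks of 1469, 1177 and 870 bp. The 2 measures therefore rank the same peaks differently, and the median peak of the set stood at the 53.2nd percentile of the list by fold and the 54.8th by −log10 q.

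**Figure D4:**
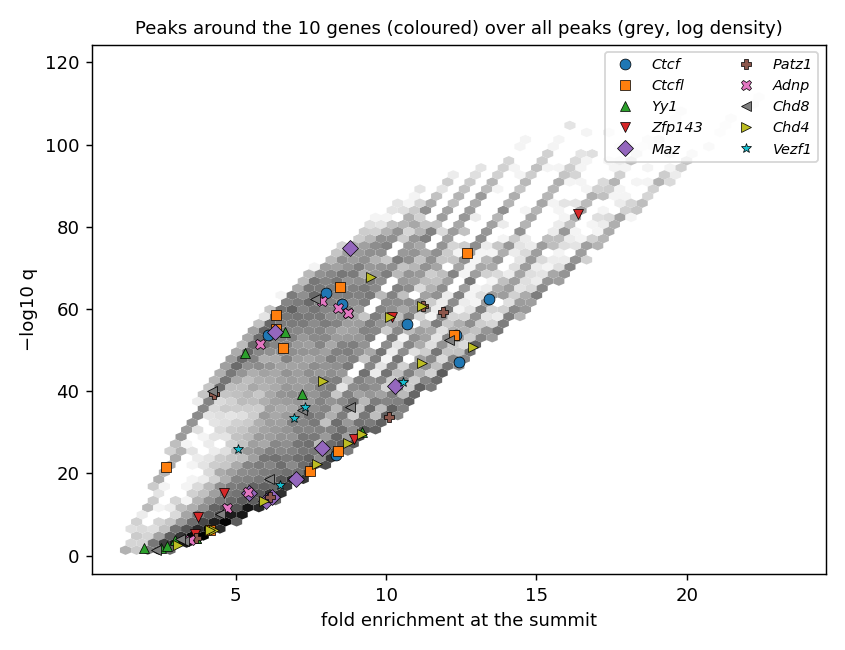
Fold enrichment at the summit (horizontal axis) and −log10 q (vertical axis) of the 84 peaks around the 10 genes, 1 symbol for each gene, over all 51871 peaks in grey (darker, more peaks, log scale). The peak inside Zfp143, at 16.4 and 83.1, is the farthest right of the symbols, and peaks of Ctcfl and Yy1 lie along both edges of the grey cloud.

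A pair of further lists was examined for context: 20 genes of cohesin, its regulators and other CTCF partners, and relatives of the members, of which 9 of 10 named were matched (Zfp76 was not). A summit lay within 1 kb of an end for 10 of the 20 partner genes and for 4 of the 9 relatives, beside 39.1% of all protein-coding genes, with medians of 5 summits per window in each, so the relatives and partners were at the all-gene median of 5. The strongest end folds among partner genes were 13.02 at Zbtb33, which encodes the methyl-DNA binding protein Kaiso, 10.004 at Stag2 and 9.95 at Smc3, both cohesin subunit genes. Among relatives they were 7.01 at Adnp2, 6.90 at Chd9 and 4.86 at Chd7. The named relatives were all below the end fold of Adnp and the stronger end fold of Chd8, and above its weaker one, 3.29. Adnp2 and Chd9 were above the end fold of Yy1, 6.65, while the named partner genes were above those of Adnp and Chd8. The ranges overlapped those of the members, from 1 to 16 summits for partner genes and from 0 to 14 for relatives, against 5 to 13 for the members.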

How the data were processed

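CTCF was profiled by ChIP-seq in whole testes of F1 (B6 by CAST) mice, with 2 immunoprecipitated and 2 input samples. BWA 0.7.12, MACS2 2.2.7 and mm10 appear among the tools and builds per the submitters' processing notes, which give them no role. The authors deposited 1 merged peak list, and whether 1 or both immunoprecipitated samples entered it is not given in the sources used here. The fold enrichment of each peak is the authors' ratio of signal at the summit over their background, as deposited. The −log10 values for p and q were also made and deposited by the authors. The score column deposited with them, like −log10 p, was not used. Depth per sample is unknown.

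Summits were set against RefSeq genes and promoters of GRCm38.p6, which shares its chromosome coordinates with mm10, and are given 1-based. Protein-coding genes of the 19 autosomes and X starting at 3 Mb or beyond served as background, leaving out 108 below it. Exons were not used. Strand came from the promoter table. Motifs were searched as exact letters on both strands. Percentiles count ties by 0.5. Values were computed with Python 3.11.15, pandas 2.3.3 and numpy 2.4.6, and window counts were tested on simulated data.

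The members and lists were chosen with earlier results of these data known. Named peaks were those inside a gene or within 1 kb of an end, and the strongest, weakest and nearest of each window; further peaks were added to complete the windows. Of the other lists, the 3 genes with the highest end fold were named. No test between groups was made, since the list holds no value per sample. The alternatives were other flanks, end windows, peak thresholds and motif letters.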

Additional observations from a re-analysis of the deposited data

How the results depend on the processing

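Of the 26 alternatives tried, 18 left the result within its limit and 8 did not. For counts and for the median number of summits per gene the limit was 1.5 times. For the medians of fold and of percentile it was the exact 95% interval of the median. The 84 peaks became 51 with a flank of 25 kb, 149 with 100 kb and 46 once a −log10 q no lower than the list median was required. The median of 8 summits per gene became 5, 16 and 4.50 under the same settings, where all protein-coding genes had medians of 3, 9 and 2. These follow by construction from wider windows or fewer peaks. The 8 promoter sequences overlapped by a peak became 4 when the summit had to lie in the sequence, beside 22.7% and 13.1% of all promoter sequences. The 0 promoters with the CTCF core became 10 with the looser letters AGNNGGC, which 59.7% of all promoter sequences hold. The 7 genes with an end summit stayed between 5 and 9 in every setting tried. The 5 came with that same −log10 q limit, where 17.0% of all protein-coding genes had one, and the 9 with an end window of 2.5 kb, where 51.1% did. The starts of the promoter table in place of gene ends (7 genes) and leaving out peaks under the 5th percentile of fold (76 peaks) were chosen after seeing the data. With those starts only the 9 members in that table could be counted, so Ctcfl dropped out, and Patz1 entered. The share of all genes under that setting was not computed. No paired analysis was possible because 1 merged list was used, without values by sample, and for the same reason no replicate could be left out. With the depth unknown, weak sites may have been missed, and a window without a peak shows only that none was called.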
